A study of Mus musculus with 6 samples.

Results

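The genes described here are the stress-responsive ATF and C/EBP transcription factors and the regulators that act with them: Atf3, Atf4, Atf5, Atf6, Ddit3, Cebpb, Cebpg, Trib3, Jdp2 and Nupr1. Their rows were found by symbol, and the genes had been selected with earlier results of these data known. Each of the 10 symbols matched 1 row of the deposited count table, which holds 43346 genes, and all 10 passed the filter on low counts that left 14000 genes for testing. The libraries came from primary mouse embryonic fibroblasts (MEFs, fibroblasts cultured from mouse embryos) of the C57BL/6 strain at passage 9, kept 24 h either in 3 µM erastin or in its solvent DMSO, with 3 libraries per treatment. Erastin is a small molecule that blocks cystine uptake through the antiporter built from SLC7A11 and SLC3A2, and is a standard trigger of ferroptosis, in which cells die through iron-dependent lipid peroxidation. No genotype or transgene is named for either group. Both groups grew in medium with fetal bovine serum and 2-mercaptoethanol, a reducing agent. The labels say that the experiment was done in triplicate but not whether the 3 libraries of a group came from separate embryos or cultures. The p-values therefore set the treatment difference against the variation between these libraries, which may in part be technical.

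ATF4 is a basic leucine zipper (bZIP) protein that sits at the centre of the integrated stress response. When kinases that sense amino acid shortage, unfolded protein, heme deficiency or viral RNA phosphorylate the initiation factor eIF2alpha, most translation falls while upstream open reading frames in the Atf4 mRNA let more ATF4 protein be made; Atf5 and Ddit3 mRNAs are translated in a similar way. ATF4 binds C/EBP-ATF response elements as a dimer with C/EBP proteins, and its targets include genes of amino acid uptake and synthesis as well as the further regulators Ddit3 (CHOP), Atf3 and Trib3. ATF6 belongs to a separate arm: it is an endoplasmic reticulum (ER) membrane protein whose released fragment activates chaperone genes. A count of mRNA therefore bears on the supply of these transcripts and not on the amount or activity of the proteins.

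The labelled cell type was checked first. All 9 fibroblast markers (among them the collagen genes Col1a1, Col1a2 and Col3a1) were detected, with summed levels of 28531 to 29719 CPM in DMSO and 16762 to 18724 CPM in erastin libraries, where CPM is the read count scaled to library size; 8 of the 9 were lower with erastin and 0 higher. Of all 14000 genes tested, 21.5% were called lower and 21.6% higher at an adjusted p-value under 0.05. In bulk RNA, fewer cells of a type and less RNA per cell cannot be told apart. The summed levels of markers of other cells were far lower. The 6 epithelial genes summed to 2.14 to 3.25 CPM over the 6 libraries. The 5 genes of macrophages and other blood cells summed to 22 to 41.4 CPM in DMSO and 26.9 to 55.7 CPM in erastin libraries, with 0 of the 5 passing in either direction. The 4 endothelial genes summed to 4.66 to 7.10 CPM in DMSO and 13.2 to 16.4 CPM with erastin, 2 of them higher (Kdr and Tek), while the endothelial markers Pecam1 and Cdh5 had 1 to 15 and 1 to 12 reads per library. The 5 neural genes had the highest sum of these other sets, 137 to 175 CPM in DMSO and 135 to 158 CPM with erastin. Of the 3 neural genes tested, 1 was higher and 1 lower. Nes (67.1 CPM) and Tubb3 (67 CPM) stood above the fibroblast marker Lum (31.5 CPM) in the DMSO mean. The 4 skeletal muscle genes summed to 51.6 to 62.1 CPM in DMSO and 17.5 to 22.3 CPM with erastin, nearly all of it from Acta1. The part of these shifts in the results below was not tested. In a principal component analysis the second component (14.5% of the variance) set DMSO replicate 3 (score -43.9) apart from DMSO replicates 1 and 2 (30.6 and 19.6); without that library all 10 genes still passed as higher. Total counts ran from 13333911 to 20509970 per library, and a count of 3 was worth 0.146 to 0.225 CPM by total count, counting error only.

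The genes lie on 6 chromosomes (GRCm38, the assembly called mm10 in the submitters' processing notes, with GENCODE M21 gene models). Atf3 occupies chr1:191170296-191218039 and Atf6 chr1:170704674-170867771, both on the minus strand. Trib3 (chr2:152337422-152344032, minus strand) and Cebpb (chr2:167688915-167690418, plus strand) share a chromosome, as do Atf5 (chr7:44812256-44816658), Cebpg (chr7:35046422-35056573) and Nupr1 (chr7:126623249-126630861), these last 3 on the minus strand. Ddit3 occupies chr10:127290774-127296288, Jdp2 chr12:85599027-85639878 and Atf4 chr15:80255184-80257541, all on the plus strand. Exons of Cebpb overlap exons of Tmem189 on the other strand over 312 bases. Those of Ddit3 overlap Mars over 68 bases and Gm4189 over 13 bases, and those of Atf5 overlap Nup62 and Il4i1 over 82 bases each. Exons of Jdp2 overlap Gm47863 over 165 bases, and those of Cebpg overlap Gm44836 over 73 bases and Gm45095 over 4 bases. A further M21 gene also named Ddit3 shares 105 exon bases with the one counted here. Whether counting used the strand is not given in the sources used here, so reads from these stretches could not be assigned with certainty. In the deposited table the genes carry the identifiers ENSMUSG00000026628.9 (Atf3), ENSMUSG00000042406.7 (Atf4), ENSMUSG00000038539.10 (Atf5), ENSMUSG00000026663.6 (Atf6), ENSMUSG00000025408.11 (Ddit3), ENSMUSG00000056501.3 (Cebpb), ENSMUSG00000056216.8 (Cebpg), ENSMUSG00000032715.9 (Trib3), ENSMUSG00000034271.11 (Jdp2) and ENSMUSG00000030717.5 (Nupr1). Counts are over whole genes, exons and untranslated regions together.

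Because ATF4 and its partners act through C/EBP-ATF response elements (CARE), the 250 bases upstream of each RefSeq start (GRCm38.p6) were searched on both strands for the CARE letters TGATGNAA, for the cAMP response element TGACGTCA, for the AP-1 element TGANTCA and for the ER stress element; the letter patterns of the AP-1 element and the cAMP response element do not contain one another. The table held a start for 9 of the 10 genes, all but Atf6. A CARE match was found for 3 of the 9 genes, Atf3, Nupr1 and Jdp2, against 3.91% of all 27025 genes in the table (3.45% of 32851 promoters). Ddit3 held the AP-1 letters, which 7.82% of all genes do. No exact match to the cAMP response element (1.77% of all genes) or the ER stress element (0.13%) lay in these windows. Sites that differ from the searched letters were not looked for. A match is a description of letters and not evidence of binding.

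The 4 matches are shown with their surroundings because they are the only exact matches to the searched letters in these promoters. Capitals mark the match, and each line is 30 bases read 5′ to 3′ in the direction of transcription.
Atf3, chr1:191183425-191183454, minus strand: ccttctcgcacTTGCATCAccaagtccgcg
Nupr1, chr7:126625562-126625591, minus strand: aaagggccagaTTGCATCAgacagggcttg
Jdp2, chr12:85599372-85599401, plus strand: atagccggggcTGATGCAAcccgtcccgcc
Ddit3, chr10:127290543-127290572, plus strand: cgcgcgcaTGACTCActcacctcctccgcg

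The 3 CARE matches hold the same 8 letters, TTGCATCA in Atf3 and Nupr1 and its reverse complement TGATGCAA in Jdp2. In both Atf3 and Nupr1 the match spans bases -110 to -103, counted back from the RefSeq start, and in Jdp2 bases -33 to -26 from the second of its 3 listed starts. The AP-1 match of Ddit3 spans bases -242 to -236. The searched windows that hold the matches of Nupr1, Ddit3 and Jdp2 overlap M21 exons over 250, 181 and 62 bases. Atf3 had the largest fold change of the 10 genes, and its upstream stretch outside annotated exons is given in full for that reason. It is upstream of the RefSeq start searched but lies inside the M21 span of the gene, chr1:191170296-191218039. For Atf3 no bases beyond the 5′ end of that span were searched. The stretch holds 243 bases from chr1:191183341-191183583 on the minus strand, with the CARE match in capitals.
Atf3 upstream: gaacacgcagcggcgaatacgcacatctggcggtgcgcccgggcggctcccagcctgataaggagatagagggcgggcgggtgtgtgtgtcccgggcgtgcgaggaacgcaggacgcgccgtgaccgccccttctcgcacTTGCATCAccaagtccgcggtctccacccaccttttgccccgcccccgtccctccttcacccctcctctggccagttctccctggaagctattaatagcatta

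With erastin the transcripts of all 10 genes were more abundant. In the edgeR quasi-likelihood test 10 of 10 rose and 0 fell at an adjusted p-value under 0.05, where 21.6% of the 14000 genes tested were called higher and 43.1% passed in either direction. In all 10 genes every erastin library lay above every DMSO library, an arrangement found in 26.7% of the genes tested (52.5% with separation in either direction). The sizes differed widely. Only 3 of the 10, Atf3, Nupr1 and Atf6, reached a log2 fold change of 1, which 4.99% of all genes did while passing, and the median over the 10 genes was 0.63 against -0.0014 for all genes. The genes had been selected with earlier results of these data known, so these counts describe them and single nothing out about the family.

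**Figure D1:**
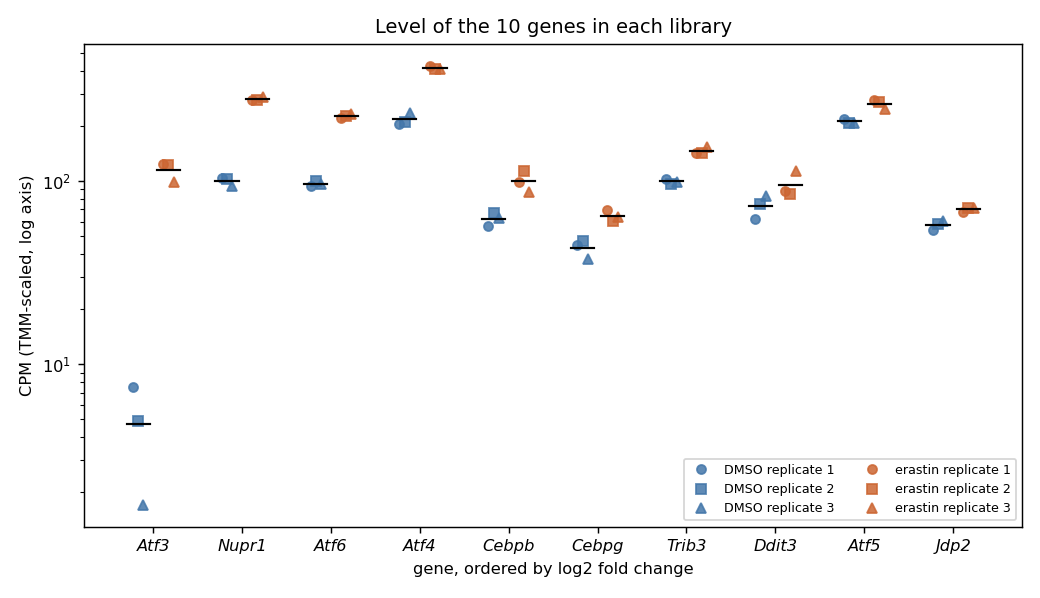
TMM-scaled CPM (log axis) of the 10 genes in each of the 6 libraries, ordered by log2 fold change; symbols mark the replicate number, colours the treatment and bars the mean of 3 libraries. No gene has overlapping groups, and Atf3 is the only one under 10 CPM in DMSO.

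Atf4 itself stood at 204, 210 and 236 CPM in DMSO replicates 1, 2 and 3 and at 425, 408 and 410 CPM in erastin replicates 1, 2 and 3. The erastin libraries were close to each other and well above the highest DMSO library, DMSO replicate 3. The mean rose from 217 ± 17 to 414 ± 9.52 CPM (SD, n = 3 each), a log2 fold change of 0.93 (SE 0.07, edgeR adjusted p = 1.66e-07) or 1.91-fold.

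Both C/EBP genes among the 10 rose by less. Cebpg, whose product lacks an activation domain of its own and pairs with ATF4, was measured at 44.9, 47.0 and 37.5 CPM in the DMSO libraries and 69.4, 60.5 and 63.6 CPM in the erastin libraries. DMSO replicate 3 was the lowest of the 6, and the groups were parted by a gap between 47.0 and 60.5 CPM. The log2 fold change was 0.58 (SE 0.11, edgeR adjusted p = 0.000438). Cebpb, a C/EBP with activating and inhibitory protein forms made from 1 mRNA, stood at 57.0, 67.2 and 62.9 CPM in DMSO and at 98.4, 114 and 87.1 CPM with erastin. Erastin replicate 2 was the highest and erastin replicate 3 the lowest of its group, yet the latter still exceeded every DMSO library. Its log2 fold change was 0.67 (SE 0.11, edgeR adjusted p = 0.000114).

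Atf3, a bZIP repressor and activator made early in many stress responses, was scarce in DMSO and abundant with erastin. The DMSO libraries held 100, 89 and 22 reads, or 7.56, 4.93 and 1.71 CPM, and the erastin libraries 2673, 2043 and 1908 reads, or 124, 122 and 98.9 CPM. Within the DMSO group replicate 1 had the highest value and replicate 3 the lowest. The mean went from 4.73 ± 2.93 to 115 ± 14.1 CPM (SD, n = 3 each), a log2 fold change of 4.59 (SE 0.27, edgeR adjusted p = 7.25e-09), which is the 13th largest rise among the 14000 genes tested. Without DMSO replicate 3 it was 4.23, and without DMSO replicate 1 it was 5.03. These were the lowest and highest values when each library was left out in turn.

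Ddit3 encodes CHOP, a C/EBP-related factor associated with prolonged ER stress and cell death. Its level was 62.0, 74.5 and 82.9 CPM in DMSO and 87.9, 85.2 and 113 CPM with erastin. The groups did not overlap, but the highest DMSO library, replicate 3, lay within 3 CPM of the lowest erastin library, replicate 2. The log2 fold change of 0.38 (SE 0.12, edgeR adjusted p = 0.0199) passed, with an approximate 95% interval of 0.14 to 0.62. It did not pass without DMSO replicate 1 (0.28, edgeR adjusted p = 0.0987) or without erastin replicate 3 (0.25, edgeR adjusted p = 0.102).

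Trib3, a pseudokinase induced by ATF4 and CHOP that in turn restrains ATF4, stood at 103, 96.3 and 99.2 CPM in DMSO and at 143, 143 and 153 CPM with erastin. The libraries of each group were tight, and the rise exceeded their spread, with a log2 difference of 0.56 ± 0.08 (SE; edgeR adjusted p = 3.68e-05). Nupr1, a small chromatin-associated stress protein, had the second largest change of the 10 genes. It was at 104, 103 and 93.5 CPM in DMSO and at 278, 277 and 289 CPM with erastin, a log2 fold change of 1.49 (SE 0.07, edgeR adjusted p = 1.88e-09) or 2.81-fold.

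In the reported fit Jdp2 and Atf5 had the smallest log2 fold changes of the 10 genes, an order that did not hold throughout: Ddit3 was smallest under an offset for GC content and length (0.35, Jdp2 0.44, Atf5 0.59) and without erastin replicate 3 (0.25, Jdp2 0.28, Atf5 0.38). Atf5, a relative of ATF4 linked to the mitochondrial unfolded protein response, was at 219, 208 and 207 CPM in DMSO and at 277, 271 and 246 CPM with erastin (0.32 in log2, SE 0.07, edgeR adjusted p = 0.00246). Jdp2, a bZIP repressor closely related to ATF3, was at 53.9, 58.3 and 60.4 CPM in DMSO and at 68.0, 71.3 and 71.5 CPM with erastin. Its groups were separate but near each other, and the log2 fold change was 0.29 (SE 0.09, edgeR adjusted p = 0.0155; approximate 95% interval 0.12 to 0.46). Jdp2 did not pass without DMSO replicate 1 (0.24, edgeR adjusted p = 0.0628) or without erastin replicate 2 (0.28, edgeR adjusted p = 0.0504).

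Atf6, the ER membrane factor, rose from 93.6, 99.6 and 96.8 CPM in DMSO to 221, 226 and 233 CPM with erastin. The libraries of each group lay close together, at 96.7 ± 2.97 and 227 ± 6.17 CPM (SD, n = 3 each), and the groups were far apart. The log2 fold change was 1.23 (SE 0.07, edgeR adjusted p = 1.14e-08), or 2.34-fold.

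Some of these sizes changed with an offset for GC content and length together. When smooth trends of each library with GC content and transcript length were removed, the log2 fold change of Cebpb went from 0.67 to 1.05, that of Atf5 from 0.32 to 0.59 and that of Jdp2 from 0.29 to 0.44. The longest transcripts of these 3 genes had a GC content of 67.2%, 61.7% and 56.8%, against a median of 49.7% over the genes tested. Other values went down: Cebpg from 0.58 to 0.45, Atf6 from 1.23 to 1.10 and Ddit3 from 0.38 to 0.35, with a GC content of 43.3%, 46% and 45.6%. GC content and length were not separated. Under this offset all 10 genes still passed as higher, and Cebpb then exceeded a log2 fold change of 1, as did Atf4 with 1.06.

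**Figure D2:**
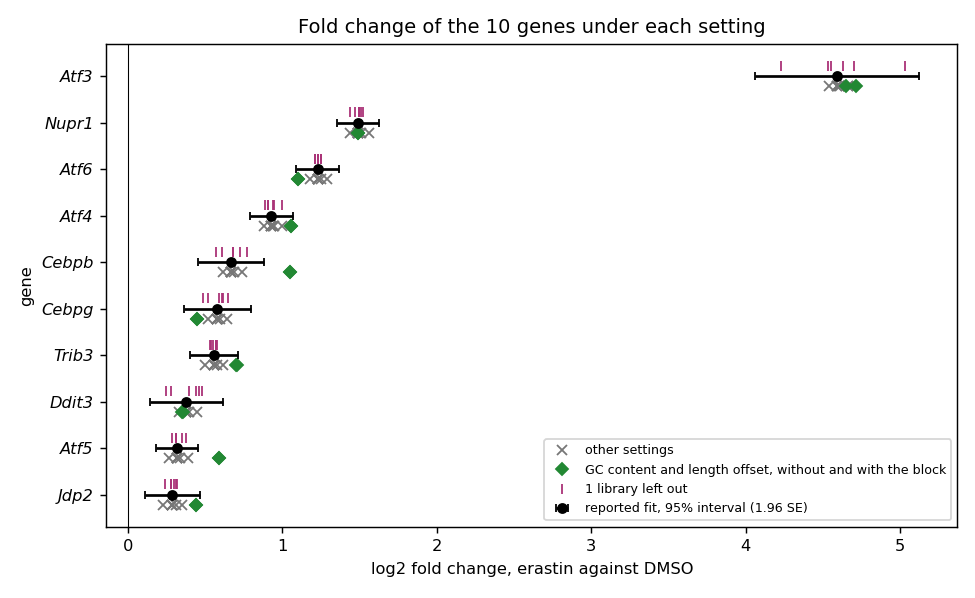
Log2 fold changes of the 10 genes (points, with approximate 95% intervals) and the same values under each other scaling, filter or test, under the GC content and length offset, and with 1 library left out. All values lie above 0, and the offset moves Cebpb and Atf5 beyond their reported intervals.

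Levels of different genes were compared as CPM per kb of annotated exon. In DMSO Atf5 was highest at 106 ± 3.36 and Atf4 next at 92.0 ± 7.19 CPM per kb (SD, n = 3). Trib3 (46.8 ± 1.53), Ddit3 (42.7 ± 6.13), Cebpb (41.5 ± 3.43) and Nupr1 (39.8 ± 2.28) followed, and neighbours in that order overlapped between libraries. Jdp2 stood at 26.8 ± 1.53, Atf6 at 10.5 ± 0.322, Cebpg at 7.67 ± 0.886 and Atf3 last at 2.20 ± 1.36 CPM per kb, each apart from the next.

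With erastin the order changed at both ends. Atf4 was first at 176 ± 4.04 and Atf5 second at 133 ± 8.26 CPM per kb, without overlap, and Nupr1 had moved up to rank 3 at 112 ± 2.59. Trib3 (68.9 ± 2.52), Cebpb (66.3 ± 8.83), Ddit3 (55.7 ± 8.99) and Atf3 (53.5 ± 6.57) formed a run in which each overlapped the next. Jdp2 (32.7 ± 0.924), Atf6 (24.6 ± 0.669) and Cebpg (11.5 ± 0.808) came last. Of the summed level per kb of the 10 genes, Atf3 made up 0.533% ± 0.337 in DMSO and 7.29% ± 0.816 with erastin, Nupr1 9.57% ± 0.724 and 15.3% ± 0.531, and Atf5 25.5% ± 1.32 and 18.1% ± 0.921 (SD, n = 3). The place of Ddit3 depended on the length used: with its longest transcript in place of all exons it had rank 3 in DMSO and rank 4 with erastin.

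**Figure D3:**
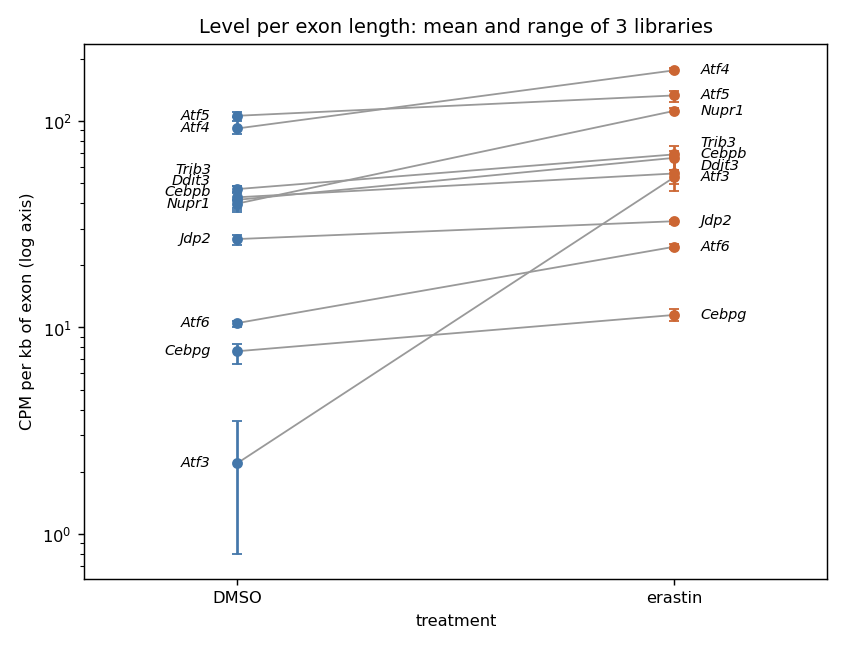
CPM per kb of exon (log axis) of the 10 genes in DMSO and erastin libraries; points are means and bars the range of 3 libraries. Atf4 passes Atf5, Nupr1 goes from rank 6 to rank 3, and Atf3 from rank 10 to rank 7.

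The gene lists from here on were chosen with earlier results of these data known, so their counts describe the listed genes only. Changes among the other ATF and CREB genes were mixed. Of 16 listed genes 13 were tested, 4 rose, 2 fell and 7 did not pass, with a median log2 fold change of 0.10. Over all genes tested, 21.6% were called higher and 21.5% lower. Crem (0.60), Atf1 (0.55), Atf7 (0.33) and the Atf6 paralog Atf6b (0.33) rose, with edgeR adjusted p-values of 0.0440, 0.00141, 0.0307 and 0.0057; the groups of Crem overlapped. Atf6b, named after its values were seen, went from 81.0, 84.3 and 80.4 CPM in DMSO to 97.8, 111 and 99.4 CPM with erastin. Creb3l1, an ER-bound factor tied to collagen secretion, fell by 0.50 on the log2 scale (edgeR adjusted p = 0.0021). Batf also fell but was near the floor, with 15, 28 and 18 reads in DMSO and 5, 6 and 2 with erastin. The count of genes higher was 2 with upper-quartile factors and 2 without DMSO replicate 1 or 2.

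The other C/EBP and Tribbles genes moved in both directions. Cebpd fell from 33.9, 33.3 and 36.3 to 22.3, 20.1 and 18.8 CPM (-0.76 in log2, SE 0.12, edgeR adjusted p = 0.000143), with no overlap. Cebpa was at 15.9 ± 0.405 and 17.4 ± 3.47 CPM (SD, n = 3), a difference that did not pass (edgeR adjusted p = 0.587), and Cebpe had 0 reads in every library, which allows up to 0.146 to 0.225 CPM. Trib1 rose from 22.9 ± 1.57 to 53.1 ± 13.0 CPM (1.22 in log2, edgeR adjusted p = 1.96e-05), whereas Trib2 fell from 65.1 ± 3.04 to 29.3 ± 1.52 CPM (-1.15 in log2, edgeR adjusted p = 2.82e-07; SD, n = 3 each).

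The AP-1 genes have JUN and FOS products that dimerise with ATF3 or JDP2 or compete with them for the same sites. They were higher in 7 of 7 cases, against 21.6% of all genes tested, with a median log2 fold change of 0.77. Fosl1 rose from 10.8, 7.82 and 10.4 to 93.1, 87.1 and 61.7 CPM (3.07 in log2, SE 0.16, edgeR adjusted p = 3.96e-09). Jun rose from 91.6, 89.1 and 106 to 351, 351 and 255 CPM (1.74, edgeR adjusted p = 3.09e-08). Both had their lowest erastin value in replicate 3, as did Atf3. Fosb (2.18), Fos (0.77), Junb (0.60), Jund (0.23) and Fosl2 (0.22) rose as well, with edgeR adjusted p-values of 0.00175, 0.00245, 0.000525, 0.0431 and 0.0178; only Jund had overlapping groups.

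Genes that act on eIF2alpha, or that encode the eIF2 and eIF2B complexes, were mixed. Of 14 genes for eIF2alpha kinases, phosphatase subunits and the eIF2 and eIF2B complexes, 6 rose, 2 fell and 6 did not pass, with a median of 0.15. The shares over all genes tested were 21.6% higher and 21.5% lower. Ppp1r15a (GADD34), the inducible subunit that directs a phosphatase to eIF2alpha, rose from 33.5, 36.5 and 44.6 to 300, 318 and 270 CPM (2.96 in log2, SE 0.10, edgeR adjusted p = 1.76e-10). Its constitutive counterpart Ppp1r15b rose by 0.65 and the eIF2B subunit gene Eif2b3 by 0.70 (edgeR adjusted p = 3.42e-05 and 0.000848). The genes that fell were Eif2ak1, the heme-regulated kinase HRI, by 0.29 and Eif2b5 by 0.25 in log2 (edgeR adjusted p = 0.0386 and 0.0326). The count of genes lower was 0 or 1 under 12 of the 16 alternatives. The other kinase genes, named after their values were seen, did not pass: Eif2ak2 (PKR) at -0.05, Eif2ak3 (PERK) at -0.21 and Eif2ak4 (GCN2) at 0.04.

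The listed targets of ATF4 rose nearly throughout. In the list of 21 genes of amino acid metabolism and transport 19 rose and 0 fell, with a median log2 fold change of 0.99. By comparison, 21.6% of all genes tested were called higher. Slc7a11, the cystine transporter subunit, had the largest rise at 3.75 (SE 0.16, edgeR adjusted p = 1.01e-09), followed by Cth, which makes cysteine by transsulfuration, at 3.09 (SE 0.11, edgeR adjusted p = 2.19e-10) and by the cationic amino acid transporter Slc7a3 at 2.40 (SE 0.12, edgeR adjusted p = 2.18e-09). Cth lay at 15.6 to 21.6 CPM in DMSO and 148 to 154 CPM in erastin libraries. Pycr1 (0.05) and Cbs (-0.04), named after their values were seen, did not pass, with edgeR adjusted p-values of 0.754 and 0.961; Cbs had only 1.95 ± 0.960 and 1.90 ± 0.446 CPM (SD, n = 3).

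Of 12 cytosolic aminoacyl-tRNA synthetase genes, which charge tRNAs with amino acids, 11 rose and 0 fell, where 21.6% of all genes tested were called higher. The median was 0.70, with a narrow range of 0.04 to 1.08. Cars (1.08), Wars (1.04) and Tars (1.02) led, with edgeR adjusted p-values of 4.18e-08, 1.51e-07 and 1.94e-07. The exception, Mars, named after its values were seen, was at 123 ± 17.6 and 127 ± 7.68 CPM (SD, n = 3; log2 fold change 0.04, edgeR adjusted p = 0.759); Mars is the gene whose exons overlap those of Ddit3.

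Among 14 stress effectors downstream of ATF4 and CHOP 11 rose and 1 fell, with a median of 0.61. All genes tested had 21.6% called higher and 21.5% lower. The hormone gene Fgf21 had 2, 4 and 3 reads in DMSO and 104, 123 and 124 reads in erastin libraries. Gdf15, which encodes a stress cytokine, rose from 7.43 to 13.1 CPM in DMSO to 176 to 214 CPM with erastin (4.35 in log2, SE 0.16, edgeR adjusted p = 2.19e-10), and Ppp1r15a, given above, followed. Txnip, a thioredoxin-binding arrestin, fell by 0.73 on the log2 scale (edgeR adjusted p = 9.52e-06). The pro-apoptotic genes Bbc3 and Bcl2l11, named after their values were seen, had log2 fold changes of 0.38 and -0.30 and did not pass (edgeR adjusted p = 0.075 and 0.218).

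ER genes that ATF6 and XBP1 are known to activate fell more often than they rose, while the Atf6 transcript itself was higher. Of 20 listed genes 3 rose, 11 fell and 6 did not pass, and their median was -0.25 in log2. Of all genes tested 21.6% were called higher and 21.5% lower. The protein disulfide isomerase gene Pdia6 fell from 366, 332 and 339 to 144, 135 and 157 CPM (-1.25 in log2, SE 0.08, edgeR adjusted p = 1.92e-08), and Calr, for the lectin chaperone calreticulin, from 1109, 962 and 1009 to 459, 455 and 470 CPM (-1.15, SE 0.07, edgeR adjusted p = 1.39e-08). Pdia3 fell by 0.88 (edgeR adjusted p = 1.77e-07). Xbp1, itself both a target of ATF6 and a bZIP factor, named after its values were seen, fell by 0.50 (edgeR adjusted p = 0.000174). The 3 genes that rose were Dnajb9 (1.01, edgeR adjusted p = 7.97e-06), Herpud1 (0.54, edgeR adjusted p = 8.47e-05) and Hspa5 (0.26, edgeR adjusted p = 0.00441). Herpud1 is also in the list of stress effectors downstream of ATF4 and CHOP. Hspa5, which encodes the chaperone BiP, went from 780 ± 16 to 932 ± 27 CPM (SD, n = 3).

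**Figure D4:**
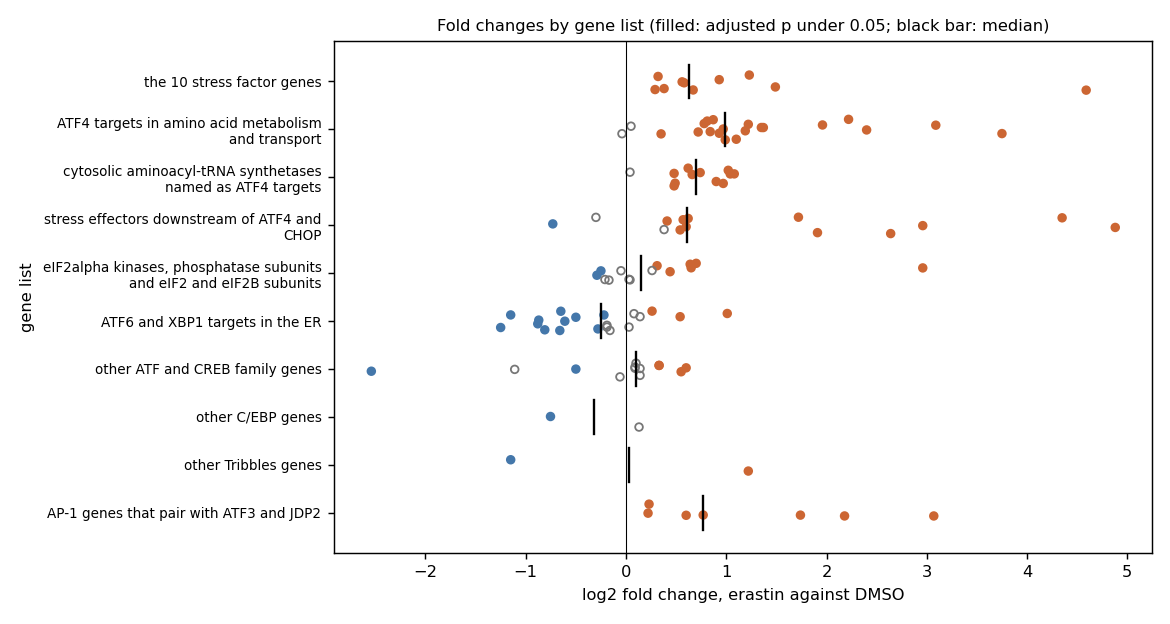
Log2 fold changes of the 10 genes and of the genes in each of the 9 lists; filled points had an edgeR adjusted p under 0.05, open points did not, and black bars are medians. The medians of the ATF4 target lists lie between 0.61 and 0.99 and that of the ATF6 and XBP1 target list at -0.25.

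Genes whose values over the 6 libraries lay nearest to those of a given factor were found by the root mean square difference in log2 CPM, each gene being centred on its DMSO mean, among 10040 protein-coding genes with a mean of at least 5 CPM. With 2 groups of 3 libraries this measure reads mainly the size of the treatment difference. The nearest to Atf3 were Crct1 (0.464), Gdf15 (0.510) and Hmox1 (0.814), the last encoding heme oxygenase 1. Those nearest to Atf4 were Slc9a8 (0.0364), Phf6 (0.0436) and Fbxo42 (0.0455), and those nearest to Trib3 were Rps6kc1 (0.0228), Pa2g4 (0.0231) and Galc (0.025). For Ddit3 they were Clip4 (0.0612), Dgka (0.0626) and Katnal1 (0.0697), of which only Katnal1 passed the test (0.37 in log2, edgeR adjusted p = 0.0287).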

How the data were processed

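The deposited table holds whole-number read counts per gene, not normalized by the authors; per the submitters' processing notes, HTSeq 0.9.1, SAMtools and mm10 were used, while aligner, annotation and strand setting are not given in the sources used here. Per the labels' protocols, RNA was depleted of ribosomal RNA, fragmented, amplified by PCR and sequenced on an Ion Proton. Identifiers were matched without version to GENCODE M21 (42462 of 43346 genes, 98%); lists used its symbols. Genes were kept by filterByExpr (minimum count 10, total 15), scaled by TMM and tested with edgeR 4.0.16 in R 4.3.3 (glmQLFit, glmQLFTest, treatment the only term; Benjamini-Hochberg over 14000 genes, threshold 0.05). Intervals (95%) use the SE and a normal approximation. CPM use TMM-scaled library sizes. The fit was also run on simulated counts with 200 changed genes. In these data 6028 genes passed, so that run does not bear on how scaling acts here. Alternatives were other scalings and filters, a replicate block, DESeq2 1.42.0, a GC content and length offset (mgcv 1.9.3), a threshold of 0.01 and leaving out each library.

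The members and the 9 gene lists were chosen with earlier results of these data known. Named were all 10 members, every gene of lists of up to 7, and in longer lists the 3 largest rises and falls that passed; for Atf3, Atf4, Ddit3 and Trib3 also the 3 nearest genes (pseudocount 0.5 CPM). Other genes are said to be named after their values were seen. Comparison of protein sequences was not run.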

Additional observations from a re-analysis of the deposited data

How the results depend on the processing

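Every log2 fold change of the 10 genes stayed above 0 in all 15 alternatives run for each, and 8 of the 10 passed in all of them; the exceptions were Ddit3 and Jdp2. Leaving out 1 library gave log2 fold changes of 0.25 to 0.48 for Ddit3 and 0.24 to 0.32 for Jdp2, and 8 to 10 of the 10 genes passing; with a threshold of 0.01, 8 passed. The causes were not tested. Over all genes 4305 to 6104 passed, against 6028 reported. The share of passing genes that were higher was 50.2%, but 44% under upper-quartile factors against 57.1% when total counts alone set the scale, with medians over all genes of -0.055 and 0.065.

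Among eIF2alpha pathway genes, 2 were reported lower. That count was 0 with scaling by total count only, with no filter or at a threshold of 0.01, 1 with the replicate block, 1 with the GC content and length offset, 1 with both, and 0 to 1 when 1 library was left out. The 4 other ATF and CREB genes reported higher were 2 with upper-quartile factors or at 0.01, and 2 to 3 with 1 library left out. All other list counts stayed within 1.5 times.

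Under the replicate block 5882 genes and all 10 members passed. The labels do not say whether equal numbers mark a shared culture or day. The correlations of equally numbered libraries' deviations were 0.0401, 0.00379 and -0.0055, and 3 of 6 libraries correlated best with their own number. With 3 libraries per group these values cannot settle whether the libraries were paired. Depth limits Batf, Fgf21 and Cebpe, which had 0 to 6 reads in at least 1 group.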
